A study of Drosophila melanogaster with 18 samples.

Results

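The comparison described here set whole third-instar larvae of the 95Ca.del strain, which lack a single U1 gene, against larvae of the wild type (WT). Its members were chosen by label alone and are 6 of the 18 RNA-seq libraries of the series, 3 replicates of 95Ca.del and 3 of the WT. The WT was an isogenic w1118 stock. The 95Ca.del flies came from CRISPR/Cas9 in embryos with Cas9 under the germ-line nanos promoter, and the line was then crossed repeatedly to that same WT. No label says whether more than 1 line of the deletion was used, how many larvae were pooled for a library or whether males and females were balanced. The other 12 libraries come from 4 further strains, 21D.del, 82Eb.del, 95Cb.del and 95Cc.del, each without another U1 gene, with 3 replicates each. Since nothing says that replicates came from separate cultures, the p-values measure the spread between these libraries.

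U1 is a small nuclear RNA that pairs with the 5′ splice site and starts the assembly of the spliceosome. With its partner proteins it also shields nascent transcripts from premature cleavage and polyadenylation. In flies several near-identical gene copies encode it, and the study compared strains that lack a single copy to ask what each copy contributes. A reporter driven by the 95Ca promoter had lit up the larval salivary gland in the study, the organ that makes the glue proteins with which the animal fixes itself before pupation.

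The sites that were cut are given by the designed guide oligonucleotides, which define the 95Ca.del allele at its upstream and downstream ends. Each is shown 5′ to 3′ as the forward cloning oligonucleotide, with the cloning overhang in lower case and the 20-base spacer in capitals.
Upstream guide: ttcgTTACCTCCTATCGACTCAGC
Downstream guide: ttcgGCAAAATGTTATGAACAACG
Both target chromosome 3R around the deleted gene, snRNA:U1:95Ca (FBgn0004185), which the count table places on dm6 at chr3R:23859467-23859630 on the minus strand. Of the spacer bases, 50% in the upstream guide and 35% in the downstream guide were G or C.

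The deleted gene was read first, in every library. Reads on snRNA:U1:95Ca were 1, 0 and 3 counts in the WT and 0, 5 and 0 counts in 95Ca.del, so the library labelled 95Ca.del replicate 2 held 5 reads on the gene its strain should lack. None of the 12 libraries of the other deletion strains had a read on its own deleted gene. All U1 genes together had 25, 6 and 6 counts in the WT and 6, 39 and 1 counts in 95Ca.del, and 24 of the 39 counts lay on snRNA:U1:95Cc. The U1 copies are near-identical and how reads shared by several copies were counted is not given in the sources used here, so single copies are uncertain. At such counts the table cannot show how much U1 RNA the larvae held. Counts on the deleted gene therefore check the label of 95Ca.del replicates 1 and 3 weakly, since WT replicate 2 was at 0 as well. They go against that of the library labelled replicate 2, on 5 reads alone. In Tpl94D and salt, described below, that library lay outside the range of all 12 other deletion libraries, as did 95Ca.del replicates 1 and 3. Both genes were named from results that included that library. Where its 5 reads came from was not tested. Because of those reads the comparison was also made with replicates 1 and 3 of both groups alone.

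The genes next to the deletion did not pass the test. On the side of lower coordinates CG34355 ends 300 bp away and had 11.5, 15.5 and 12.5 CPM in the WT and 22.5, 13.4 and 18.1 CPM in 95Ca.del (log2 fold change 0.51 ± 0.19 SE, adjusted p = 0.283). On the other side Pli, which encodes the pellino regulator of Toll signalling, lies on the minus strand with its 3′ end 532 bp away. It had 122, 161 and 119 CPM in the WT and 160, 117 and 119 CPM in 95Ca.del (log2 fold change 0.05 ± 0.15 SE, adjusted p = 0.899). Of the 5 nearest annotated genes on each side, 6 had enough reads to be tested: these 2, eIF4G2 (log2 fold change -0.14), TfIIA-S (0.62), tbrd-1 (-0.41) and sba (0.29). Their adjusted p lay between 0.283 and 0.899. The remaining 4 were snRNA:U1:95Cb, snRNA:U1:95Cc, lncRNA:CR43285 and CR46402.

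The libraries held 11919121 to 21776613 counts, and they differed in a way that no label gives. The RNA of 7SK, a small nuclear RNA that holds back transcription elongation, was counted at 5330, 53.8 and 4670 CPM in the WT and 66.8, 8490 and 4650 CPM in 95Ca.del, where CPM scales a count to the total of its library. WT replicate 2 and 95Ca.del replicate 1 were thus far below the other 4. The same split ran through the series, with 1 low library in each group. The 6 low libraries lay at 23.6 to 66.9 CPM and the other 12 at 2440 to 8490 CPM. Between these sets of libraries 509 genes were lower and 477 higher without overlap, of 8847 genes with a mean of at least 5 CPM, among them 39 of 93 genes of cytosolic ribosomal proteins and 4 of 16 Jonah proteases.

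**Figure D1:**
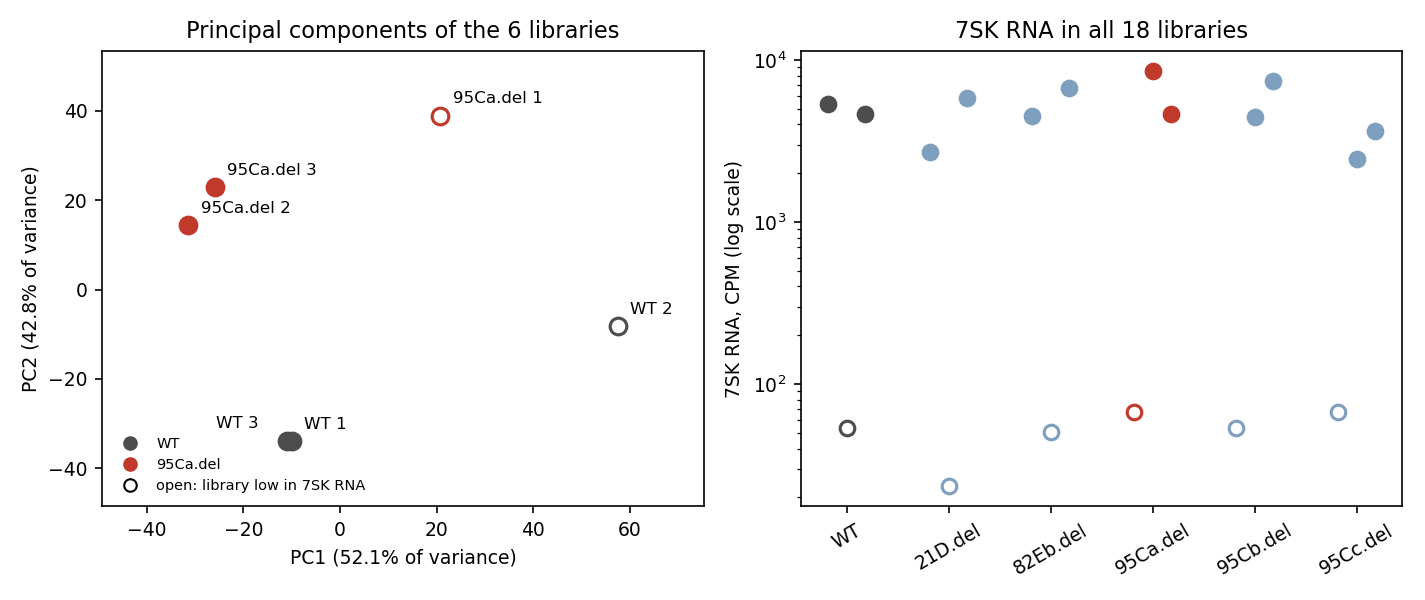
Left, the first and second principal components (PC1, PC2) of log2 CPM over the 500 most variable genes, each point a library. Right, the level of 7SK RNA in CPM (log scale) in all 18 libraries, with blue points for the other deletion strains. The open points, low in 7SK, lie furthest right on PC1 in their group, and PC2 places the 3 95Ca.del libraries above the 3 WT libraries.

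PC1 held 52.1% of the variance and placed WT replicate 2 at 57.55 and 95Ca.del replicate 1 at 20.73, with the other 4 libraries between -31.39 and -10.02. PC2 held 42.8%, with the WT at -33.99, -8.27 and -33.91 and 95Ca.del at 38.91, 14.41 and 22.86. The strain and the WT were thus apart on the second component and not on the first. Results below are given for the 6 libraries as labelled. Beside them, where it matters, stand results from a model with a 7SK term, which was chosen after seeing the data. This term only marks whether a library lay below 1000 CPM of 7SK, not its measured level.

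Of 12463 genes tested, 343 were differentially expressed (DEGs), that is, more than 2-fold different with an adjusted p below 0.05. The change was lopsided: 313 genes were lower in 95Ca.del and 30 higher, 2.51% and 0.241% of the genes tested, while the median log2 fold change of all genes was 0.03. Lower DEGs fell by a median of 5.71-fold, and 107 of them by more than 10-fold, while higher DEGs rose by a median of 2.64-fold. In all 343 the 3 libraries of 95Ca.del lay outside the WT range, as 19.1% of all genes tested did. Without 95Ca.del replicate 3 the count was 135, without WT replicate 1 it was 186 and without WT replicate 3 it was 199. Leaving out any other library gave 247 to 328, and 131 of the 343 kept their call in all 6 fits. All 343 kept their direction in each, which follows from the lack of overlap between groups. With the 7SK term 724 genes were DEGs (592 lower, 132 higher), the 343 included.

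Genes of digestion made up the plainest group. The larval midgut secretes proteases, glycosidases and lipases into the food and takes up the products, together with sterols and carotenoids that flies cannot make. In the 8 lists of such genes 119 were tested, of which 45 were lower in 95Ca.del (37.8%, against 2.51% of all genes) and 1 was higher, with a median log2 fold change of -1.95. Leaving out single libraries gave 32 to 50 lower genes, replicates 1 and 3 gave 56, and the 7SK term gave 61 lower and 4 higher. These lists describe gut cells, and in whole larvae fewer such cells and less RNA per cell cannot be told apart.

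Enzymes that split starch and sugars were lower in 9 of 14 genes, with a median log2 fold change of -3.72. The maltase gene Mal-A1 had 160, 228 and 160 CPM in the WT and 6.16, 11.9 and 6.15 CPM in 95Ca.del (log2 fold change -4.36 ± 0.39 SE, adjusted p = 0.00156). Its neighbour in function Mal-A3 had 159, 121 and 166 CPM in the WT and 2.44, 5.51 and 2.8 CPM in 95Ca.del (log2 fold change -5.28 ± 0.50 SE, adjusted p = 0.00199). In both, the highest 95Ca.del library was far below the lowest of the WT. Mal-A4 (log2 fold change -4.61 ± 0.42 SE, adjusted p = 0.00164) and the amylase-related gene Amyrel (log2 fold change -3.55 ± 0.23 SE, adjusted p = 0.000471) fell as well, and Mal-A7 fell (log2 fold change -4.73 ± 0.79 SE, adjusted p = 0.0267) but lost its call without 95Ca.del replicate 3, WT replicate 1 or WT replicate 3, where its adjusted p reached 0.159. Mal-A5 had 314, 452 and 288 CPM in the WT and 432, 480 and 349 CPM in 95Ca.del and did not pass (log2 fold change 0.37 ± 0.23 SE, adjusted p = 0.537). The amylases themselves were spread too widely to be called. Amy-d had 712, 45 and 735 CPM in the WT and 4.32, 41.9 and 16.9 CPM in 95Ca.del (adjusted p = 0.179) and Amy-p had 790, 12.5 and 802 CPM in the WT and 1.64, 75.9 and 25.6 CPM in 95Ca.del (adjusted p = 0.378), with WT replicate 2 among the low values. With the 7SK term both were still lower, Amy-d at log2 fold change -4.15 ± 0.45 SE, adjusted p = 0.00166 and Amy-p at log2 fold change -3.61 ± 0.48 SE, adjusted p = 0.00419.

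Proteases of the gut lumen followed. Of 16 Jonah genes, which encode midgut serine endopeptidases, 4 were lower, and of 13 trypsin-like genes 6 were lower, none of either list being higher. Jon99Ci had 289, 471 and 285 CPM in the WT and 35, 38.6 and 24.4 CPM in 95Ca.del (log2 fold change -3.29 ± 0.27 SE, adjusted p = 0.00108). The trypsin gene thetaTry had 318, 515 and 338 CPM in the WT and 10.8, 9.59 and 9.99 CPM in 95Ca.del (log2 fold change -5.16 ± 0.20 SE, adjusted p = 0.000226). Jon65Aii (log2 fold change -3.61 ± 0.42 SE, adjusted p = 0.00517), Jon74E (log2 fold change -2.91 ± 0.31 SE, adjusted p = 0.00336), kappaTry (log2 fold change -5.40 ± 0.36 SE, adjusted p = 0.000473) and Ser6 (log2 fold change -3.69 ± 0.38 SE, adjusted p = 0.00307) also fell. Jon65Aii had an adjusted p of 0.0526 without 95Ca.del replicate 3, and Jon44E (log2 fold change -4.51 ± 0.73 SE, adjusted p = 0.023) kept its call only where WT replicate 2 or the library labelled 95Ca.del replicate 2 was left out. lambdaTry was almost absent from the strain, with 78, 74 and 78 counts in the WT and 0, 1 and 0 counts in 95Ca.del, a fall of 244-fold (95% counting interval 43.3 to 9670).

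The most abundant proteases moved with the 7SK split. The marker gene Jon65Aiv had 5660, 222 and 6260 CPM in the WT and 227, 2390 and 1220 CPM in 95Ca.del, so that WT replicate 2 lay at the level of 95Ca.del replicate 1 (adjusted p = 0.631, and 0.168 with the 7SK term). Summed over the 16 Jonah genes, WT libraries held 28500, 3020 and 29300 CPM and 95Ca.del libraries 838, 7410 and 3790 CPM. Within the 4 libraries high in 7SK, 15 of the 16 genes were lower DEGs, and the 7SK term over all 6 gave 11, where 3.78% and 4.75% of all genes were lower DEGs. Left out singly, 95Ca.del replicate 3 took the count of 4 to 2, and the other libraries left 3 to 5. The trypsin marker alphaTry had 750, 172 and 616 CPM in the WT and 36.6, 147 and 94.9 CPM in 95Ca.del (adjusted p = 0.224, and 0.00111 with the 7SK term).

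**Figure D2:**
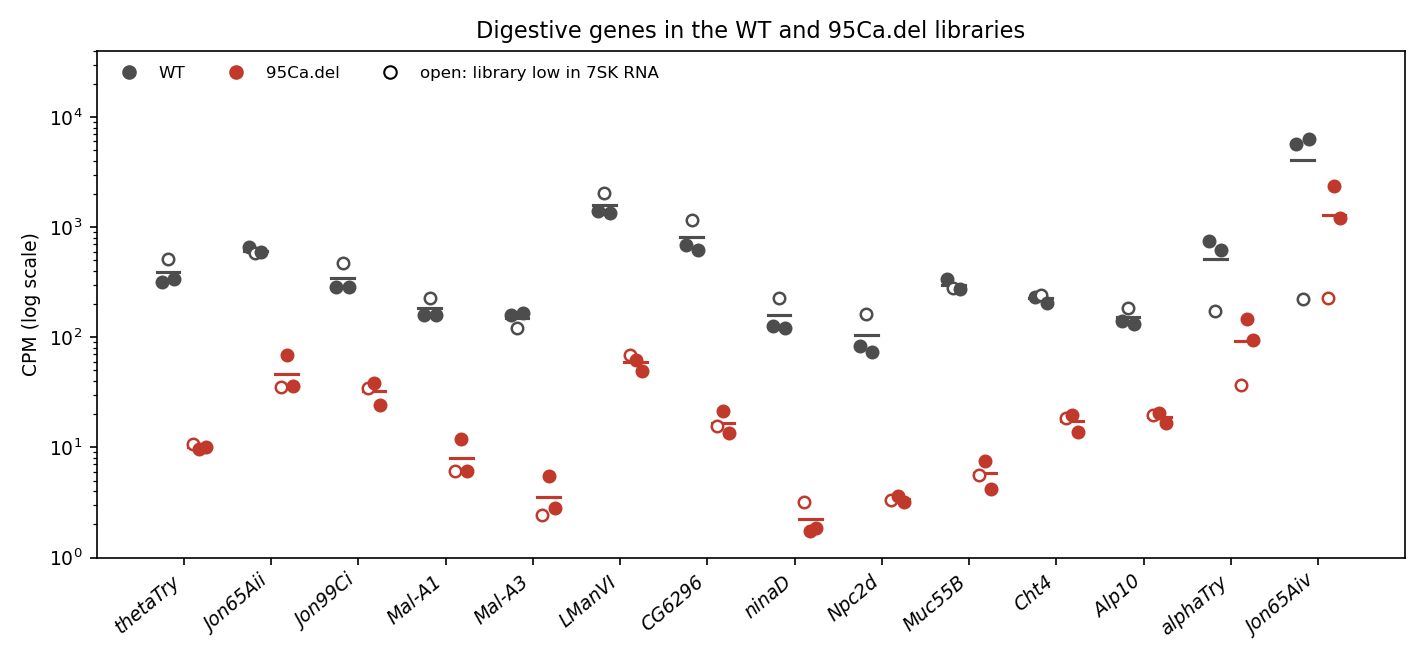
Levels of 14 genes of digestion in CPM (log scale), WT in grey and 95Ca.del in red, each point a library and each bar the mean of 3. In 13 genes the highest 95Ca.del library lies below the lowest WT library; Jon65Aiv, at the right, is the exception, with an open WT point at 222 CPM and an open 95Ca.del point at 227 CPM.

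Lipases were lower in 11 of 30 genes and higher in 1, CG4582, which was named after its values were seen. CG6296, a predicted triacylglycerol lipase, had 687, 1150 and 623 CPM in the WT and 15.5, 21.3 and 13.5 CPM in 95Ca.del (log2 fold change -5.47 ± 0.35 SE, adjusted p = 0.000471). The gut lipase gene magro (mag), which also acts on sterol esters, had 996, 1300 and 946 CPM in the WT and 34.1, 107 and 47.1 CPM in 95Ca.del (log2 fold change -3.95 ± 0.54 SE, adjusted p = 0.0114), and was not called without 95Ca.del replicate 3 (adjusted p = 0.0951). CG6271 (log2 fold change -5.22 ± 0.35 SE, adjusted p = 0.000471) and CG17192 (log2 fold change -5.07 ± 0.55 SE, adjusted p = 0.00394) fell too, and CG31091 had 108, 81 and 52 counts in the WT and 1, 0 and 0 counts in 95Ca.del, a fall of 255-fold (95% counting interval 45.4 to 10100). Without 95Ca.del replicate 3 the count of lower lipases was 6, and CG4582 was called in none of the 6 fits that left out a library.

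Lysosomal-type alpha-mannosidases were split by copy. LManVI, the most abundant of those that fell, had 1410, 2050 and 1340 CPM in the WT and 68.8, 61.7 and 49 CPM in 95Ca.del (log2 fold change -4.65 ± 0.26 SE, adjusted p = 0.000392). LManIII (log2 fold change -4.48 ± 0.26 SE, adjusted p = 0.000392), LManIV (log2 fold change -5.66 ± 0.27 SE, adjusted p = 0.000307) and LManV (log2 fold change -4.54 ± 0.36 SE, adjusted p = 0.000943) fell alike, whereas LManII had 589, 1020 and 579 CPM in the WT and 832, 608 and 561 CPM in 95Ca.del and did not pass (log2 fold change -0.03 ± 0.23 SE, adjusted p = 0.967). The whole list of 13 glycosidases held 6 lower genes in each of the 6 fits that left out a library.

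Uptake of sterols and carotenoids was lower in 5 of 12 genes, again in every one of those fits. ninaD, a scavenger receptor needed to take up dietary carotenoids, had 126, 227 and 122 CPM in the WT and 3.18, 1.73 and 1.84 CPM in 95Ca.del (log2 fold change -6.04 ± 0.29 SE, adjusted p = 0.000307). Npc1b, which midgut cells need to absorb sterol, had 36.9, 66.5 and 38.8 CPM in the WT and 4.47, 2.97 and 3.04 CPM in 95Ca.del (log2 fold change -3.66 ± 0.23 SE, adjusted p = 0.000471). Its relative Npc1a, which moves sterol inside cells in general, had 161, 310 and 160 CPM in the WT and 275, 126 and 178 CPM in 95Ca.del and did not pass (adjusted p = 0.96). The sterol-binding genes Npc2c (log2 fold change -4.43 ± 0.35 SE, adjusted p = 0.000916) and Npc2d (log2 fold change -4.83 ± 0.29 SE, adjusted p = 0.000451) fell with ninaD.

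Further genes, some of them linked to the gut, were lower, a few in each family. The tissue that each was read from was not tested. Of 14 genes of mucins and the peritrophic matrix, the sheet that lines the gut, Muc55B (log2 fold change -5.59 ± 0.37 SE, adjusted p = 0.000471) and Muc18B (log2 fold change -2.76 ± 0.43 SE, adjusted p = 0.0194) were lower, the latter not without 95Ca.del replicate 3, WT replicate 1 or WT replicate 3 (adjusted p up to 0.145). Among families picked after their values were seen, 2 of 11 alkaline phosphatases (18.2%) and 2 of 30 subunits of the V-type proton pump (6.67%) were lower. So were 1 of 5 acyl-CoA-binding proteins (20%) and 2 of 4 arylalkylamine acetyltransferase-like genes (50%), where 2.51% of all genes were. The alkaline phosphatases Alp9 (-2.86) and Alp10 (-2.91), the proton pump subunits Vha100-4 (-4.05) and Vha100-5 (-1.35), the acyl-CoA-binding gene Acbp6 (-4.09) and the acetyltransferase-like AANATL6 (-4.28) had values as given, all being log2 fold changes with adjusted p of 0.00921 or less. Vha100-5 lost its call without 95Ca.del replicate 3 or WT replicate 1 (adjusted p up to 0.0739). AANATL5 (log2 fold change -2.92), the other acetyltransferase-like gene, lost its call without any 1 of the 95Ca.del libraries or WT replicate 1 (adjusted p up to 0.0682). Dgat2, which makes triacylglycerol, had 21.9, 46.2 and 19.3 CPM in the WT and 1.24, 0.527 and 0.959 CPM in 95Ca.del (log2 fold change -4.89 ± 0.38 SE, adjusted p = 0.000865). tobi, an alpha-glucosidase that answers to insulin and adipokinetic hormone signals, had 104, 164 and 97.3 CPM in the WT and 27.5, 28 and 20.9 CPM in 95Ca.del (log2 fold change -2.15 ± 0.21 SE, adjusted p = 0.00267). Lysozymes were lower in 3 of 8 genes, LysB (log2 fold change -6.35), LysE (-3.04) and CG8492 (-1.01), but none kept its call without 95Ca.del replicate 1, 95Ca.del replicate 3, WT replicate 1 or WT replicate 3.

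**Figure D3:**
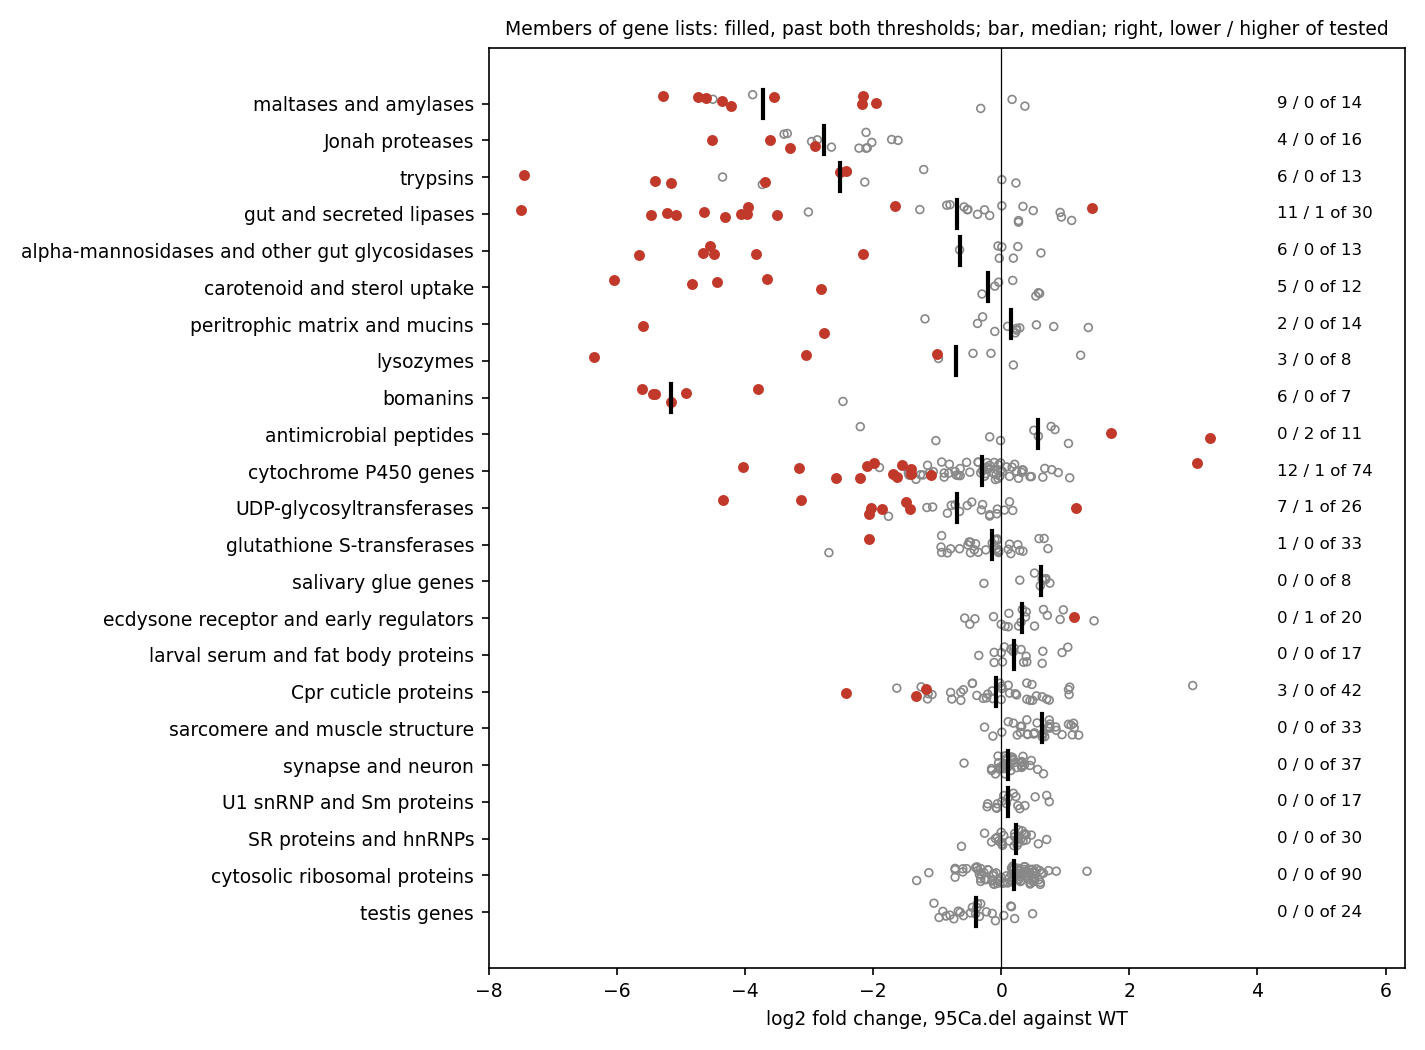
Log2 fold change of 95Ca.del against WT for the tested members of 23 gene lists, each point a gene, filled red where it is a DEG and open where it is not, with a black bar at the list median. The numbers at the right give lower and higher DEGs of the genes tested, from 9 and 0 of 14 maltases and amylases to 0 and 0 of 24 testis genes.

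Immune genes moved in both directions. Bomanins are short secreted peptides that the Toll pathway induces. They were lower in 6 of 7 tested genes (85.7%, against 2.51% of all genes), while 5 listed genes had too few reads. Levels were low throughout, and BomS3 had 134, 123 and 118 counts in the WT and 4, 4 and 1 counts in 95Ca.del (log2 fold change -5.41 ± 0.36 SE, adjusted p = 0.000471). It was the sole bomanin called in every fit that left out a library. Without 95Ca.del replicate 3 or WT replicate 3 the count of 6 became 1, and without 95Ca.del replicate 1, the library labelled 95Ca.del replicate 2 or WT replicate 1 it became 2. BomS1 had an adjusted p of 0.0578 in replicates 1 and 3. The antifungal peptide gene Drosomycin (Drs), another Toll target, had 59.9, 21.5 and 45.6 CPM in the WT and 8.6, 9.35 and 9.35 CPM in 95Ca.del and did not pass (log2 fold change -2.20 ± 0.46 SE, adjusted p = 0.0626).

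Of 11 antimicrobial peptide genes tested 2 rose with all libraries (18.2%, against 0.241% of all genes), both targets of the Imd pathway, and 0 fell. DESeq2 and the 7SK term each called 1 gene of the list lower and 2 higher. Replicates 1 and 3 gave 1 lower and 0 higher. Of all genes, DESeq2 called 3.52% lower and 0.61% higher, and the 7SK term 4.75% and 1.06%. The fit of replicates 1 and 3 called 2.95% and 0.271%. DptA, which encodes a diptericin, had 9, 3 and 1 counts in the WT and 34, 55 and 34 counts in 95Ca.del (log2 fold change 3.26 ± 0.60 SE, adjusted p = 0.0379). AttC, an attacin, had 3.35, 4.28 and 2.45 CPM in the WT and 8.5, 12 and 10.1 CPM in 95Ca.del (log2 fold change 1.72 ± 0.29 SE, adjusted p = 0.0269). Both lost their call in replicates 1 and 3 (adjusted p = 0.125 and 0.0552), and both were called without 95Ca.del replicate 1 but not without any of the other 5 libraries (adjusted p up to 0.184). PGRP-SB2, which encodes a peptidoglycan recognition protein, had 13.8, 17.8 and 12.5 CPM in the WT and 30, 27.3 and 31.3 CPM in 95Ca.del (log2 fold change 1.10 ± 0.17 SE, adjusted p = 0.021) and was the sole DEG of 30 genes of recognition and signalling with all libraries. It was not called without WT replicate 1, WT replicate 3, 95Ca.del replicate 3 or the library labelled 95Ca.del replicate 2 (adjusted p up to 0.141). With all libraries 3.33% of that list was thus higher, against 0.241% of all genes. Lower genes of that list were called in other fits, 3 in replicates 1 and 3, 3 with the 7SK term and 1 with DESeq2. Those fits called 2.95%, 4.75% and 3.52% of all genes lower. PGRP-SC1b, one of the gut amidases that break down peptidoglycan and named after its values were seen, was called in each of these 3 fits, with 299, 9 and 132 counts in the WT and 0, 0 and 0 counts in 95Ca.del (adjusted p = 0.113 with all libraries and 0.00226 with the 7SK term). Its near-identical copy PGRP-SC1a, so that reads may be split between them, had 133, 0 and 97 counts in the WT and 0, 0 and 0 counts in 95Ca.del, and was called in replicates 1 and 3.

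Among blood cell genes PPO1, the prophenoloxidase that crystal cells store for melanization, had 457, 575 and 396 CPM in the WT and 76, 62.8 and 57.4 CPM in 95Ca.del (log2 fold change -2.78 ± 0.19 SE, adjusted p = 0.000471). It was the sole DEG of 24 genes of hemocytes and crystal cells (4.17%, against 2.51% of all genes that were lower). The hemocyte marker Hml had 789, 1380 and 752 CPM in the WT and 979, 523 and 653 CPM in 95Ca.del (log2 fold change -0.36 ± 0.26 SE, adjusted p = 0.596). Tep4, a thioester-containing protein of the hemolymph, had 242, 381 and 222 CPM in the WT and 53.3, 32.6 and 39.1 CPM in 95Ca.del (log2 fold change -2.67 ± 0.20 SE, adjusted p = 0.00082), and Toll-9, a receptor of the Toll family, had 4.32, 9.31 and 5.49 CPM in the WT and 0.199, 0.0959 and 0.399 CPM in 95Ca.del (log2 fold change -4.75 ± 0.48 SE, adjusted p = 0.00287). These last 2 were named after their values were seen.

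Among detoxification genes 12 of 74 cytochrome P450 genes were lower (16.2%, against 2.51% of all genes) and 1 was higher, and of 26 UDP-glycosyltransferases 7 were lower (26.9%) and 1 was higher. Glutathione S-transferases were near the share of all genes, with 1 lower gene of 33 (3.03%), GstE5, which lost its call without any single library. Cyp6a14 had 203, 285 and 197 CPM in the WT and 15.3, 12.9 and 11.3 CPM in 95Ca.del (log2 fold change -4.03 ± 0.18 SE, adjusted p = 0.000307) and Cyp6w1 had 66.7, 111 and 50.2 CPM in the WT and 12.1, 6.47 and 5.35 CPM in 95Ca.del (log2 fold change -3.16 ± 0.33 SE, adjusted p = 0.00335). Ugt37A2 (log2 fold change -4.34 ± 0.39 SE, adjusted p = 0.00162) and Ugt37B1 (log2 fold change -3.13 ± 0.37 SE, adjusted p = 0.00559) fell likewise. Against this, Cyp6a18 had 3.21, 4.36 and 3.28 CPM in the WT and 42.9, 19.7 and 25.2 CPM in 95Ca.del (log2 fold change 3.06 ± 0.26 SE, adjusted p = 0.00129) and rose in every fit that left out a library. Without 95Ca.del replicate 3 the lower P450 genes numbered 3 and the lower UDP-glycosyltransferases 2. Without WT replicate 1 or WT replicate 3 there were 6 P450 genes each, and 7 without 95Ca.del replicate 1 or the library labelled replicate 2. Lower UDP-glycosyltransferases numbered 4 without that library or WT replicate 1.

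The genes that rose most were few and mostly of low level. CR31054, a pseudogene, had 0, 0 and 0 counts in the WT and 26, 21 and 16 counts in 95Ca.del, at least 19.8-fold higher in the strain against a floor of 3 counts over the WT group, and was not called when any 95Ca.del library was left out (adjusted p up to 0.099). Btnd, annotated as a biotinidase, had 5.1, 6.29 and 5.55 CPM in the WT and 41.8, 36.5 and 28.8 CPM in 95Ca.del (log2 fold change 2.73 ± 0.21 SE, adjusted p = 0.000865) and kept its call in all 6 such fits. CG2233, whose role is not known, was the highest riser by level, with 562, 764 and 532 CPM in the WT and 3350, 1740 and 2150 CPM in 95Ca.del (log2 fold change 2.02 ± 0.26 SE, adjusted p = 0.00897). It lost its call without 95Ca.del replicate 3, WT replicate 1 or WT replicate 3 (adjusted p up to 0.0705). CG4653 rose as well, with 0.505, 0.671 and 1.13 CPM in the WT and 6.36, 10 and 4.71 CPM in 95Ca.del (log2 fold change 3.27 ± 0.50 SE, adjusted p = 0.0176), but not without 95Ca.del replicate 3 or WT replicate 1 (adjusted p up to 0.0923). CG5327 (2.33), CG34436 (2.23), CG32023 (2.38) and CG7542 (2.10) complete the 10 largest log2 fold changes, and each of these 4 was lost without 95Ca.del replicate 3 and without WT replicate 1, among other libraries for all but CG34436. CG13884, for which the naming rule also asked, had 1.19, 2.18 and 1.01 CPM in the WT and 0.398, 1.01 and 0.32 CPM in 95Ca.del (log2 fold change -1.13 ± 0.55 SE, adjusted p = 0.419).

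At the other end CR13656, also a pseudogene, had 16, 37 and 29 counts in the WT and 0, 0 and 0 counts in 95Ca.del and CG30265 had 14, 23 and 14 counts in the WT and 0, 0 and 0 counts in 95Ca.del, at least 29-fold and 18-fold lower with the floor of 3 counts taken over the 95Ca.del group. Both lost their call in replicates 1 and 3 (adjusted p = 0.0809 and 0.0648). In the fits that left out a library CR13656 was called only without WT replicate 1, and CG30265 in none. CG14205 had 119, 72 and 80 counts in the WT and 1, 0 and 0 counts in 95Ca.del, a fall of 287-fold (95% counting interval 51.1 to 11400). CG11893 had 34.4, 77.4 and 33.2 CPM in the WT and 0.547, 0.336 and 0.16 CPM in 95Ca.del (log2 fold change -6.91 ± 0.45 SE, adjusted p = 0.000471) and CG34026 had 49, 111 and 63.3 CPM in the WT and 1.69, 0.767 and 1.28 CPM in 95Ca.del (log2 fold change -5.80 ± 0.35 SE, adjusted p = 0.000451). These 3 kept their calls in all 6 of those fits.

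The salivary gland was looked at because the 95Ca reporter was seen there. None of 8 glue genes was a DEG with edgeR or DESeq2, although 4 had an unadjusted p below 0.05, all higher in 95Ca.del, as was the case for 4.59% of all genes (9.51% were lower). The median log2 fold change of the 8 was 0.62. Over all genes DESeq2 called 3.52% lower and 0.61% higher. The glue gene Sgs8 had 889, 667 and 756 CPM in the WT and 1150, 1230 and 1220 CPM in 95Ca.del (log2 fold change 0.70 ± 0.28 SE, adjusted p = 0.33), Sgs7 had 1230, 1480 and 1270 CPM in the WT and 1960, 1600 and 1860 CPM in 95Ca.del (log2 fold change 0.52 ± 0.22 SE, adjusted p = 0.351) and Sgs3 had 13300, 4930 and 14800 CPM in the WT and 8510, 11500 and 19900 CPM in 95Ca.del (log2 fold change 0.29 ± 0.61 SE, adjusted p = 0.86). The libraries did not overlap in Sgs8 and Sgs7, and did in Sgs3. Summed over the list, WT libraries held 20300, 15000 and 21800 CPM and 95Ca.del libraries 21700, 21100 and 30900 CPM, which overlap. Of 25 genes that regulate the gland or its secretion edgeR called 0 and DESeq2 called 1 higher, with 2 at an unadjusted p below 0.05, both higher. Of 4 tested new glue and intermoult genes 0 were DEGs by either tool, with 1 higher at an unadjusted p below 0.05.

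Hormone response genes gave few calls, which rested on 1 or 2 genes a list. Eip78C, a nuclear receptor gene induced by ecdysone, had 54, 75.7 and 61.6 CPM in the WT and 127, 137 and 129 CPM in 95Ca.del (log2 fold change 1.14 ± 0.18 SE, adjusted p = 0.0189) and was the sole DEG of 20 genes of the early response. It was not called without 95Ca.del replicate 3, the library labelled 95Ca.del replicate 2, WT replicate 1 or WT replicate 3 (adjusted p up to 0.125). The early list thus had 5% higher DEGs, against 0.241% of all genes. DESeq2 and the 7SK term each called 2 of its genes higher, where 0.61% and 1.06% of all genes were. At an unadjusted p below 0.05, 5 were higher and 1 lower, where 4.59% and 9.51% of all genes were. Eig71Eb, of a late ecdysone-induced gene cluster, had 2.25, 7.13 and 4.59 CPM in the WT and 0.249, 0.192 and 0.32 CPM in 95Ca.del (log2 fold change -4.08 ± 0.48 SE, adjusted p = 0.00575). br, the ecdysone-induced Broad gene that marks the turn to metamorphosis, had 1330, 1570 and 1640 CPM in the WT and 2040, 2290 and 2750 CPM in 95Ca.del and did not pass (log2 fold change 0.72 ± 0.28 SE, adjusted p = 0.32). Of 12 juvenile hormone genes Jheh3, an epoxide hydrolase that breaks down the hormone, had 137, 210 and 128 CPM in the WT and 79.8, 54.6 and 52.9 CPM in 95Ca.del (log2 fold change -1.26 ± 0.18 SE, adjusted p = 0.0139). JhI-26 (log2 fold change -1.63 ± 0.32 SE, adjusted p = 0.0463) was the other one called, so 16.7% of the list was lower, against 2.51% of all genes. JhI-26 lost its call without any single library, and Jheh3 kept it only without 95Ca.del replicate 1 or WT replicate 2.

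Fat body storage genes gave no call. None of 17 genes was a DEG with edgeR or DESeq2. At an unadjusted p below 0.05, 1 was higher, where 4.59% of all genes were. Their summed level was 87500, 115000 and 82800 CPM in the WT and 120000, 129000 and 103000 CPM in 95Ca.del. The storage protein gene Lsp1beta had 16400, 15500 and 15500 CPM in the WT and 13900, 27200 and 16300 CPM in 95Ca.del (log2 fold change 0.39 ± 0.45 SE, adjusted p = 0.751). Fbp1, the receptor that takes such proteins back up, had 21600, 21600 and 19700 CPM in the WT and 36800, 46200 and 31800 CPM in 95Ca.del (log2 fold change 0.95 ± 0.42 SE, adjusted p = 0.365), with no overlap between groups.

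Muscle genes had higher levels in 95Ca.del without passing the test gene by gene. None of 33 sarcomere and muscle genes was a DEG with edgeR and 2 were higher DEGs with DESeq2, where 0.61% of all genes were. At an unadjusted p below 0.05, 9 were higher and 0 lower, where 4.59% and 9.51% of all genes were. The median log2 fold change of the list was 0.64. The myosin heavy chain gene Mhc had 5440, 3610 and 5190 CPM in the WT and 9550, 11400 and 10900 CPM in 95Ca.del (log2 fold change 1.21 ± 0.39 SE, adjusted p = 0.223), with every 95Ca.del library above every WT library. Summed over the list the WT held 43100, 39900 and 43000 CPM and 95Ca.del 64000, 62100 and 64400 CPM. In 19 of the 33 genes the 95Ca.del libraries all lay above the WT range, as 8.47% of all genes did. With the 7SK term 6 of the 33 were higher DEGs, where 1.06% of all genes were. Outside that list 2 genes, named after their values were seen, passed with all libraries. RyR, the calcium release channel of muscle, had 80.5, 64.9 and 77.3 CPM in the WT and 173, 156 and 156 CPM in 95Ca.del (log2 fold change 1.17 ± 0.22 SE, adjusted p = 0.0406). Obsc, the giant sarcomere protein obscurin, had 158, 164 and 145 CPM in the WT and 348, 411 and 312 CPM in 95Ca.del (log2 fold change 1.29 ± 0.23 SE, adjusted p = 0.0321). Neither was called in any fit that left out a library (adjusted p up to 0.191).

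Of 37 genes of neurons and synapses 0 were DEGs with either tool. At an unadjusted p below 0.05, 4 were higher and 1 lower, where 4.59% and 9.51% of all genes were. The neuronal marker elav had 51.4, 70.1 and 60.1 CPM in the WT and 83.6, 62.2 and 76.3 CPM in 95Ca.del (log2 fold change 0.36 ± 0.15 SE, adjusted p = 0.348).

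Some cuticle genes were called. Of 42 Cpr genes, which encode chitin-binding cuticle proteins, 3 were lower (7.14%, against 2.51% of all genes). At an unadjusted p below 0.05, 10 were lower and 2 higher, where 9.51% and 4.59% of all genes were. With the 7SK term 6 were lower and 1 higher, where 4.75% and 1.06% of all genes were. Their median log2 fold change was -0.07. The one with the smallest adjusted p, Cpr49Af, had 94.8, 122 and 72.9 CPM in the WT and 45.6, 30 and 33.7 CPM in 95Ca.del (log2 fold change -1.33 ± 0.18 SE, adjusted p = 0.0106). Without 95Ca.del replicate 3, WT replicate 1 or the library labelled 95Ca.del replicate 2 the count of 3 was 0. The larval cuticle gene Lcp1 had 14000, 393 and 10700 CPM in the WT and 1870, 7060 and 7640 CPM in 95Ca.del, its lowest value in WT replicate 2, and did not pass (adjusted p = 0.855). Of 33 genes of chitin 2 were lower (6.06%, against 2.51% of all genes). Cht4, a chitinase, had 234, 241 and 207 CPM in the WT and 18.4, 19.9 and 13.9 CPM in 95Ca.del (log2 fold change -3.62 ± 0.24 SE, adjusted p = 0.000471) and Gasp, a chitin-binding protein of the trachea, had 333, 399 and 346 CPM in the WT and 166, 149 and 178 CPM in 95Ca.del (log2 fold change -1.05 ± 0.17 SE, adjusted p = 0.0253), the latter called only without WT replicate 2 among the fits that left out a library. ple, the tyrosine hydroxylase that feeds melanin and cuticle tanning, had 379, 405 and 400 CPM in the WT and 739, 897 and 826 CPM in 95Ca.del and missed the threshold (log2 fold change 1.14 ± 0.24 SE, adjusted p = 0.0677).

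Markers of sex and gonad bear on how alike the larvae were. None of 24 testis genes was a DEG with either tool, though 4 were lower at an unadjusted p below 0.05, and their summed level was 397, 452 and 435 CPM in the WT and 328, 253 and 324 CPM in 95Ca.del. Of 15 Y-linked and dosage compensation genes edgeR called 0 and DESeq2 called 2 lower, with 4 lower at an unadjusted p below 0.05. Of all genes, DESeq2 called 3.52% lower and 9.51% were lower at that unadjusted p. roX1, a non-coding RNA that males make to coat the X chromosome, had 1130, 2090 and 1200 CPM in the WT and 813, 347 and 563 CPM in 95Ca.del (log2 fold change -1.29 ± 0.30 SE, adjusted p = 0.0975), and the Y-linked dynein gene kl-5 had 6.57, 16.4 and 8.23 CPM in the WT and 4.27, 1.44 and 2.32 CPM in 95Ca.del (log2 fold change -1.87 ± 0.40 SE, adjusted p = 0.0694). In both RNAs every 95Ca.del library lay below every WT library, as in 7 of those 15 genes and 10.6% of all genes. The part of the larvae's sex in any result was not tested. The germ-cell gene vas had 2.53, 5.79 and 3.88 CPM in the WT and 4.52, 2.01 and 3.2 CPM in 95Ca.del (log2 fold change -0.24 ± 0.34 SE, adjusted p = 0.79).

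Genes of RNA processing, the machinery in which U1 acts, gave no call. With edgeR and with DESeq2 0 genes were DEGs among 17 of the U1 particle and the Sm ring, among 30 SR proteins and hnRNPs and among 18 cleavage and polyadenylation factors. At an unadjusted p below 0.05 there were 1, 3 and 1, all higher, and the medians of log2 fold change were 0.11, 0.23 and 0.26. At that unadjusted p 4.59% of all genes were higher and 9.51% lower. Hrb27C, an hnRNP, had 1160, 1460 and 1460 CPM in the WT and 1340, 980 and 1620 CPM in 95Ca.del (0.01 ± 0.26 SE on the log2 scale). Of 102 tested small nucleolar and Cajal body RNAs edgeR called 0 and DESeq2 called 1 lower, with 6 lower and 6 higher at an unadjusted p below 0.05. Their summed level was highest in the library labelled 95Ca.del replicate 2, at 1480 CPM against 409 to 955 CPM in the other 5 libraries. It was also the library with the most 7SK and U1 reads.

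Ribosomal protein genes depended on the libraries taken. None of 90 was a DEG with edgeR, 1 was lower with DESeq2 and 4 were lower at an unadjusted p below 0.05. Of all genes 3.52% were lower with DESeq2 and 9.51% at that unadjusted p. The median log2 fold change of the list was 0.19 with all replicates, -0.53 with replicates 1 and 3 and 0.42 with the 7SK term. Summed levels were 75000, 35200 and 70300 CPM in the WT and 45100, 71800 and 64400 CPM in 95Ca.del, lowest in the 2 libraries low in 7SK. Of 16 mitochondrial genome transcripts edgeR called 0 and DESeq2 called 1 lower, with 0 at an unadjusted p below 0.05. mt:CoI, of the respiratory chain, had 5760, 13500 and 7720 CPM in the WT and 10200, 1350 and 7220 CPM in 95Ca.del (log2 fold change -0.48 ± 0.64 SE, adjusted p = 0.782), lowest in the library labelled 95Ca.del replicate 2.

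Taking replicates 1 and 3 of both groups alone, 403 of 12527 genes were DEGs, 369 lower and 34 higher (2.95% and 0.271% of the genes). Of the 343 DEGs found with all replicates, 266 lower and 20 higher ones were shared. All 343 kept their direction, which again follows from the lack of overlap between groups. A further 103 lower and 14 higher genes were called only here, 59 of the former also in the 4 libraries high in 7SK. Among lists, lower Jonah genes went from 4 to 8 and lower trypsin-like genes from 6 to 12. Lower maltases and amylases went from 9 to 10, lipases from 11 to 12, and the higher antimicrobial peptides from 2 to 0. Lower antimicrobial peptides went from 0 to 1. In this selection 95Ca.del replicate 1 was the single library low in 7SK, so the strain and the 7SK level were partly mixed. alphaTry was called here (log2 fold change -3.46 ± 0.54 SE, adjusted p = 0.0321). Of the genes named above, those that lost their call were BomS1, DptA, AttC, JhI-26, GstE5, CR13656, CG30265 and CG7542, with adjusted p between 0.0506 and 0.125. RyR (0.93) and Obsc (at the threshold of 1) lost theirs by the log2 fold change, not by the adjusted p.

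**Figure D4:**
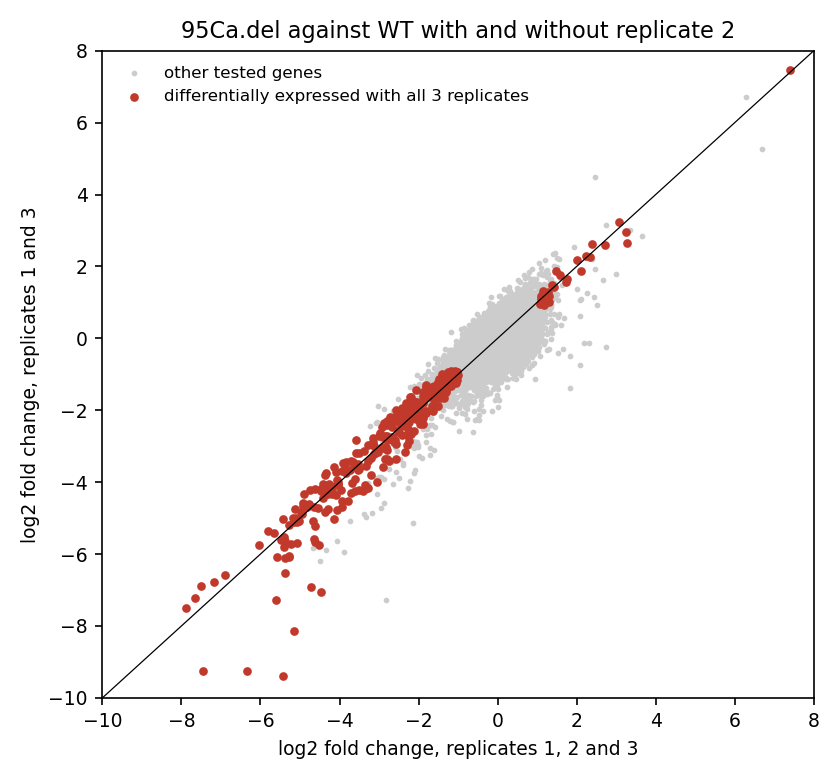
Log2 fold change of 95Ca.del against WT with replicates 1, 2 and 3 (horizontal) and with replicates 1 and 3 alone (vertical), each point a gene, red for the 343 DEGs with all replicates and grey for the rest. Every red point lies on the same side of 0 on both axes, which follows from the lack of overlap between groups in these genes. Some of the grey points lie below the diagonal.

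The other deletion strains put these falls in context. Their 12 libraries all lay below the WT range in 220 of the 313 lower DEGs (70.3%, against 2.53% of all genes tested), and their median did in 308. Of the 30 higher DEGs, all 12 libraries lay above the WT range in 7 (23.3%, against 0.481% of all genes). thetaTry was at 3.93 to 42 CPM in those 12, Mal-A1 at 3.86 to 16.5 CPM, LManVI at 32.4 to 158 CPM, PPO1 at 32.9 to 119 CPM and CG2233 at 1390 to 4650 CPM. The same 3 WT libraries stand behind each such contrast, so a trait of these WT larvae and an effect of lacking a U1 gene cannot be told apart from them.

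A test that leaves out the WT set 95Ca.del against the mean of the other deletion strains over 15 libraries. Of 12963 genes, 53 passed the same thresholds, 32 lower in 95Ca.del and 21 higher (0.247% and 0.162%). Of the 32, 26 were also lower than in the WT, and of the 21, 4 were also higher than in the WT and 2 lower. Without 95Ca.del replicate 1 or 95Ca.del replicate 3 the count was 23 and without the library labelled replicate 2 it was 28. With the 7SK term it was 74.

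Some gut genes had their lowest mean level in 95Ca.del, though not all of these calls held when a 95Ca.del library was left out. ninaD averaged 2.25 ± 0.81 CPM (SD, n = 3) in 95Ca.del, against 25 ± 14.5 in 21D.del, 3.35 ± 0.687 in 82Eb.del, 3.21 ± 1 in 95Cb.del and 9.69 ± 1.07 in 95Cc.del (log2 difference -1.62 ± 0.28 SE, adjusted p = 0.0276). Its levels there overlapped those of 82Eb.del and 95Cb.del. CG6296 averaged 16.8 ± 4.07 CPM, below all 12 libraries of the others (24.1 to 134 CPM), with log2 difference -1.56 ± 0.25 SE, adjusted p = 0.0129. Npc2d (log2 difference -1.61 ± 0.22 SE, adjusted p = 0.00389), Vha100-4 (log2 difference -1.55 ± 0.18 SE, adjusted p = 0.00188) and Cht4 (log2 difference -1.51 ± 0.26 SE, adjusted p = 0.0271) were lower too. Npc2d and Vha100-4 kept their call whichever 95Ca.del library was left out (adjusted p up to 0.0498). ninaD and Cht4 lost it whichever was left out (adjusted p up to 0.217). CG6296 kept its call only without the library labelled replicate 2. It was not called without replicate 1 or replicate 3 of 95Ca.del (adjusted p up to 0.131). thetaTry (log2 difference -0.61 ± 0.15 SE, adjusted p = 0.15) and LManVI (log2 difference -0.10 ± 0.13 SE, adjusted p = 0.998) did not pass that test.

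Further genes that passed had other roles. Tpl94D, which encodes a transition protein of sperm chromatin, averaged 0.544 ± 0.351 CPM in 95Ca.del, 17.6 ± 4.02 CPM in the WT and between 7.04 and 23.1 CPM in the other strains (log2 difference -4.32 ± 0.40 SE, adjusted p = 0.000514). salt had 172, 93.3 and 113 CPM in 95Ca.del, above the 38.6, 74.1 and 31.7 CPM of the WT and above all 12 libraries of the other strains at 16.4 to 83 CPM (log2 difference 1.69 ± 0.17 SE, adjusted p = 0.000808). Its call against the WT (log2 fold change 1.49 ± 0.27 SE, adjusted p = 0.0369) held only without WT replicate 2 among the fits that left out a library. Against the other strains Tpl94D and salt kept their call whichever 95Ca.del library was left out (adjusted p up to 0.00823). Among the 12963 genes 0.239% lay below, and 0.0463% above, all 12 libraries.

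**Figure D5:**
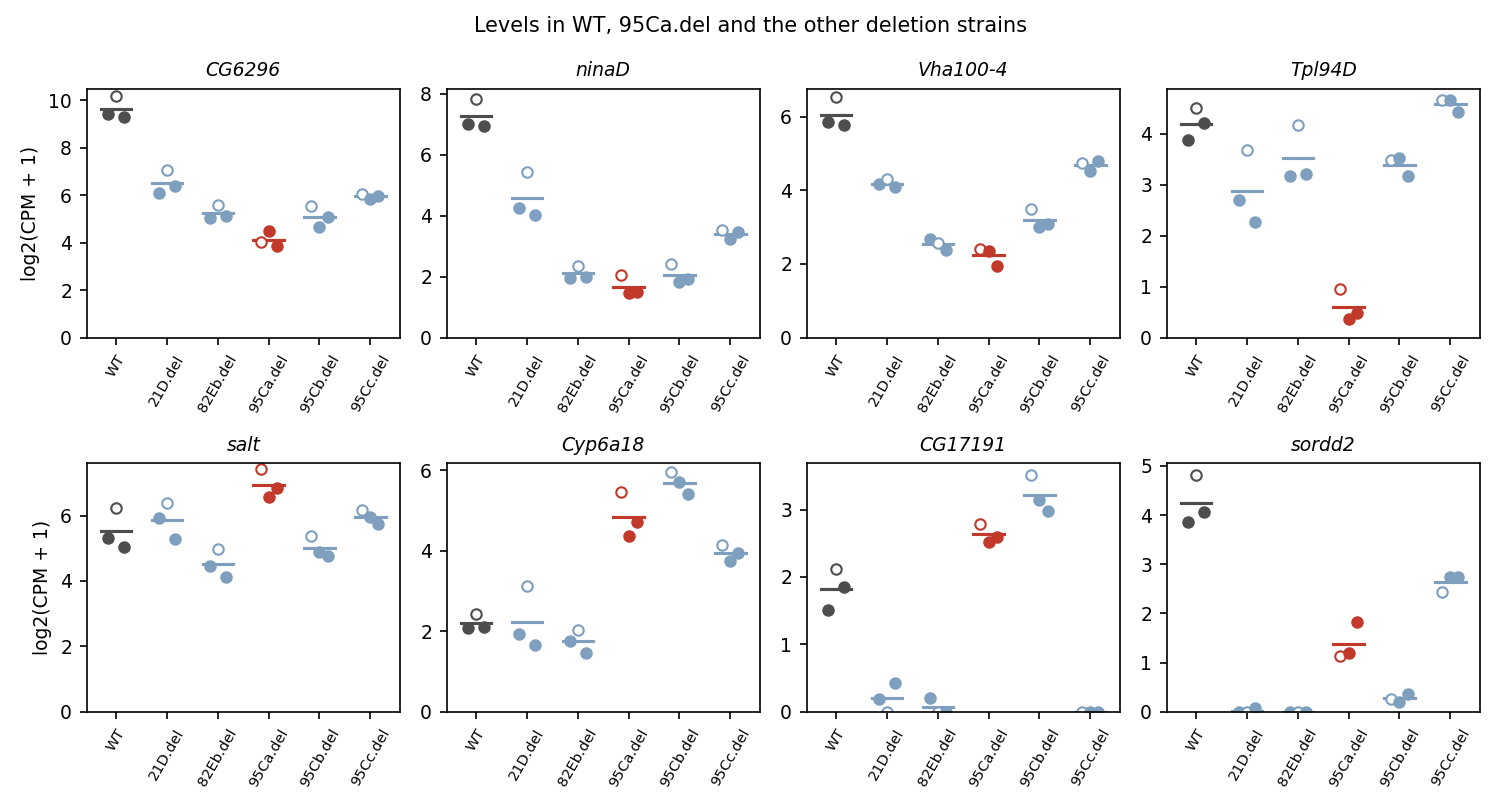
Levels of 8 genes as log2(CPM + 1) in the WT, 95Ca.del and the other deletion strains, each point a library, open where it is low in 7SK, and each bar the mean of 3. CG6296, ninaD and Vha100-4 are highest in the WT and lowest in 95Ca.del, Tpl94D is lowest in 95Ca.del, salt is highest there, and Cyp6a18, CG17191 and sordd2 differ from strain to strain.

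Levels of some genes differed widely among the deletion strains. Cyp6a18 averaged 29.3 ± 12.1 CPM in 95Ca.del and 51.2 ± 9.6 in 95Cb.del, against 3.62 ± 0.645 in the WT, 4.23 ± 3.05 in 21D.del, 2.4 ± 0.671 in 82Eb.del and 14.5 ± 2.08 in 95Cc.del. CR31054 was likewise found in 95Cb.del, at 1.92 ± 0.475 CPM, and CG11893 was as low there, at 0.405 ± 0.254 CPM, as in 95Ca.del (0.347 ± 0.194), while the other strains averaged 15.6 to 31.7 CPM. sordd2 averaged 18.8 ± 7.23 CPM in the WT, 1.68 ± 0.76 in 95Ca.del and 5.27 ± 0.754 in 95Cc.del, and 0.214 CPM or less in the others.

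DEGs of 95Ca.del were found on all large chromosome arms, not just near the deletion. On 3R, which carries the deleted gene, 86 genes were lower and 8 higher of 3063 tested (3.07%), against 2.84% on 2L, 3.3% on 2R, 2.59% on 3L and 1.83% on X. Within 1 Mb of the deleted gene 10 of 252 genes were lower and 0 higher (3.97%).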

How the data were processed

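Strand-specific total RNA, with rRNA removed, was sequenced from whole third-instar larvae. The read statistics of the study instead call the sequencing mRNA-seq, and its methods do not mention rRNA removal. The authors trimmed reads with Trimmomatic 0.39 and cutadapt 1.15, aligned them to dm6 with HISAT2 and deposited a table of raw read counts per gene from featureCounts. Settings for strand and for reads with several hits are not given in the sources used here. The table holds 17562 genes in 18 libraries, and 17478 (99.5%) matched a reference table of gene names.

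Counts were tested with edgeR 4.0.16 (quasi-likelihood test, TMM) in R 4.3.3 on genes kept by filterByExpr (minimum count 10, total 15). DEGs differed more than 2-fold at a Benjamini-Hochberg adjusted p below 0.05. Means carry the SD, fold changes the SE, and counting intervals the 95% exact interval, which like the floor of 3 counts covers counting error only. DESeq2 1.42.0, other scalings, no filter, a replicate block and leaving out libraries were alternatives. The 7SK term and the fits without libraries low in 7SK were chosen after seeing the data. The code was tested on simulated data with 200 changed genes.

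Named were the U1 genes, 5 neighbours on each side, the 10 largest DEGs each way, up to 4 DEGs a list (or, with none, 2 members of highest CPM), 5 genes each way against the other deletion strains, 2 of the genes the study tested by RT-PCR (CG4653 and CG13884) and tissue markers. Genes named outside this rule were chosen after their values were seen: these include Amy-d, Amy-p, Mal-A5, Amyrel, mag, LManII, Npc1a, Drs, kl-5 and those so marked above. Members and gene lists were chosen with earlier results of these data known.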

Additional observations from a re-analysis of the deposited data

Results flagged for a closer look

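The genes below differed most between 95Ca.del and the mean of the 4 other deletion strains, by the test of that difference itself, with values in log2. Lower in 95Ca.del were CR13656 (-6.17), CG14205 (-4.66), CG11893 (-4.53), Tpl94D (-4.32) and NijB (-4.03). Higher were CG17191 (5.06), CR31054 (4.95), lncRNA:CR46123 (3.99), sordd2 (3.84) and CG12592 (3.20). CG11893 and CR13656 were also low in 95Cb.del, and CR31054, CG17191 and lncRNA:CR46123 were present there too. CR13656, CG14205 and NijB lost their call whichever 95Ca.del library was left out (adjusted p up to 0.244), and the other 7 kept theirs (adjusted p up to 0.0221).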

How the results depend on the processing

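Counts of DEGs in 95Ca.del against WT moved with the model. They were 568 with DESeq2 (484 lower, 84 higher), 539 with all 18 libraries in 1 fit (475 and 64), 724 with the 7SK term (592 and 132) and 535 without WT replicate 2 and 95Ca.del replicate 1 (469 and 66). With library totals there were 297, of which 17 were higher, and with no filter 344. Leaving out 1 library gave 135 to 328 DEGs, 131 to 302 lower and 3 to 26 higher, and 131 of the 343 DEGs were called in all 6 such fits. With a replicate block there were 95 (93 lower, 2 higher). Deviations of same-numbered libraries from their group means correlated at -0.66, -0.59 and 0.44 over genes. Those of 95Ca.del replicate 1 and WT replicate 2, the libraries low in 7SK, correlated at 0.75. Since that split crosses the numbers, these values cannot show whether same-numbered libraries were handled together.

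Against the other deletion strains there were 53 DEGs, 82 with DESeq2 (54 lower), 34 with library totals (16 lower), 35 with the replicate block (17 lower) and 87 with replicates 1 and 3 (55 lower, 32 higher). The 7SK term gave 74 (32 higher), and leaving out the libraries low in 7SK gave 62 (33 higher). Without single 95Ca.del libraries there were 23 to 28, with 8 to 12 lower and 12 to 16 higher. No named fold change or difference past its threshold reversed under any of these alternatives. Fits that only left out libraries could hardly reverse a fold change against the WT, since the groups did not overlap in these genes. The cause of these shifts was not tested.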
